A study of Mus musculus with 15 samples.

Results

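The Rab GTPases are the largest family of small GTP-binding proteins that direct membrane traffic. Here they were taken as every gene whose single annotated symbol is Rab followed by a number, with an optional letter or number after it, so that regulators and effectors with longer symbols are not among them. The rule found 62 probe sets for 59 genes, of 19938 genes measured through a probe set with a single symbol. For the 3 genes with more than 1 probe set (Rab2a, Rab5b and Rab11b), the probe set with the highest mean signal was used.

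A Rab protein switches between a GDP-bound form, kept soluble by GDI, and a GTP-bound form on a membrane, where it recruits effectors such as tethers and motors. Exchange factors load GTP and so activate a Rab on its membrane, and GTPase-activating proteins end the cycle. Each Rab has its own compartments, so the set of Rabs a cell makes is part of what organises its Golgi, endosomes, lysosomes and secretory granules. In dendritic cells these compartments carry out antigen uptake, processing and presentation, and Rab43 has a described role in cross-presentation by the cDC1 subset.

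The cells were sorted from mouse bone marrow at 2 stages, common dendritic cell progenitors (CDPs) and later cells that were positive for the Zbtb46-GFP reporter and had intermediate c-Kit, the receptor for stem cell factor. Each stage was taken from mice of 3 genotypes (WT, Batf3 KO, Id2 KO), with 2 CDP arrays and 3 Zbtb46-GFP+ arrays per genotype, 15 in all. Every group carries the Zbtb46-GFP reporter, and the later stage was gated on it. The labels call the WT and the Id2 KO mice chimeric and leave that word out for the Batf3 KO reporter mice, so the kind of host and the Batf3 genotype cannot be told apart. Batf3, a factor of the AP-1 family, is needed for cDC1 development. Id2 binds and blocks E proteins, the factors behind plasmacytoid dendritic cell (pDC) identity. The labels do not say whether the replicates came from separate mice, so p-values measure the spread between these arrays, which may be technical. In sorted bulk RNA, fewer cells of a type and less RNA per cell cannot be told apart.

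Replicate 1 of each Zbtb46-GFP+ group has far lower signals than the rest (array medians of 23.8 to 24.1, where the other 12 arrays have 100.8 to 112.1), and 28 of the 59 Rab genes have identical values on all 3 of them. The tests below therefore use 12 arrays, 2 per group, and those 3 are given apart. The number of arrays limits the precision. The labels were checked on the targeted genes in Zbtb46-GFP+ cells against WT. Batf3 was lower in Batf3 KO (log2 difference -2.82, limma adjusted p = 2.12e-05) and Id2 in Id2 KO (-3.13, adjusted p = 0.000504). Batf3 was also lower in Id2 KO (-1.63, limma adjusted p = 0.000963), while Id2 was not called in Batf3 KO (-0.38). Id2 signal still rose in the Id2 KO step, by 2.09 (limma adjusted p = 0.00259). Zbtb46 itself rose in the WT step by 1.08 but was not called in the step of either knockout. Its signal in the later cells was lower than in WT in Batf3 KO (-1.08, limma adjusted p = 0.00713) and Id2 KO (-1.06, adjusted p = 0.00336). Kit, the gene of c-Kit, was lower there in Id2 KO than in WT (-0.88, limma adjusted p = 0.0131). In Batf3 KO the Kit difference of 0.03 was not called. Of 15 cDC1 markers, 14 were higher in WT Zbtb46-GFP+ cells than in WT CDPs. In the same step 5 of 10 cDC2 markers and 5 of 10 monocyte markers were higher, with 0 and 2 lower. Of 11 pDC markers 2 were higher and 1 lower. Xist was lower in the Zbtb46-GFP+ cells of both knockouts than in WT on the 12 arrays, with log2 differences of -6.61 for Batf3 and -6.53 for Id2, so the sex of the cells and the genotype cannot be told apart there. On the replicate 1 arrays Xist differed from WT by 0.50 in Batf3 KO and by -6.87 in Id2 KO.

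Signals are RMA probe set values on the log2 scale. A change is a difference of group means in log2 units with its standard error (SE), and a gene is called when the adjusted p of limma's moderated test, after Benjamini-Hochberg correction over all 19938 genes, is under 0.05. The signals of different probe sets are not compared with each other. No filter on low signal was applied, and 37 of the 59 Rab genes lay above the median signal of all genes and 22 below it.

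The first question was which Rab genes change between CDPs and the later cells when the mice are WT. Of the 59, 11 passed the test (18.6%), against 11.1% of all genes, with 4.71% of all genes higher and 6.38% lower. The 7 that rose were Rab7b, Rab43, Rab30, Rab32, Rab39, Rab11a and Rab19, and the 4 that fell were Rab44, Rab27a, Rab31 and Rab38. The median change was 0.11 over the Rab genes and 0.03 over all genes. The other 48 lay between -0.6 and 0.63, 34 of them within 0.3 of 0, while a few members moved by several fold. The median absolute change was 0.246 over the Rab genes and 0.184 over all genes. The difference between the Rab share and the share of all genes was not tested. The count was 18 after quantile normalization and 21 with a block for the array of each group with the higher 75th percentile of signal, called the percentile block below. Here and below, counts under other settings come without the share of all genes called under the same setting. They are therefore not to be set against the shares of all genes given.

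**Figure D1:**
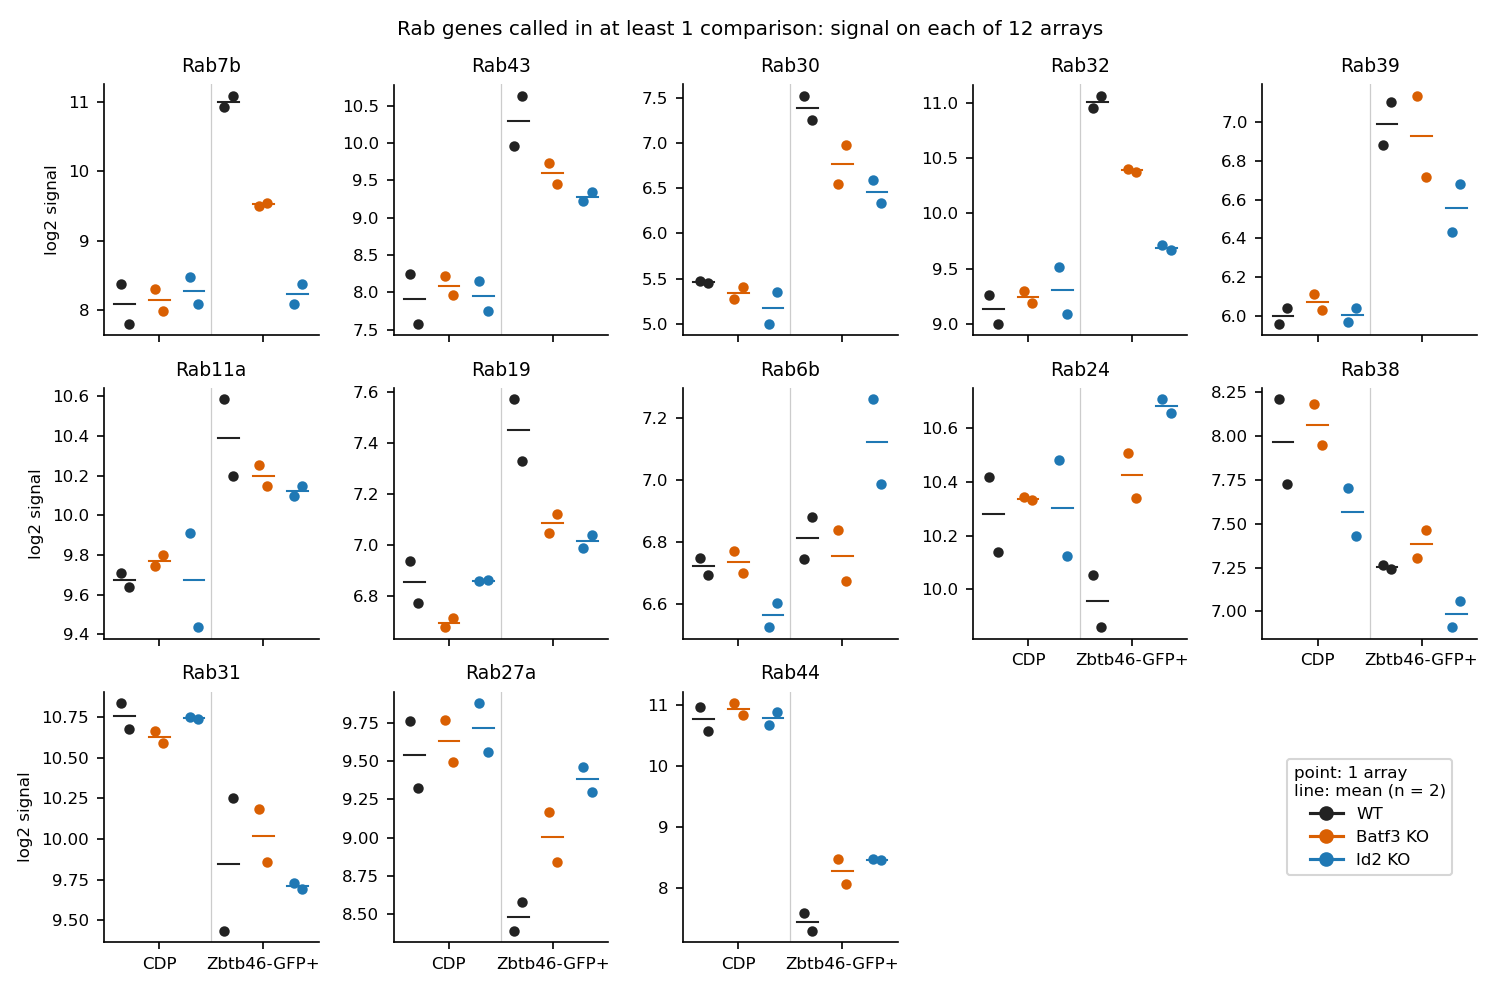
Log2 signal on each of the 12 arrays for the 13 Rab genes called in at least 1 of the 10 comparisons; points are arrays, lines are group means (n = 2), colours are genotypes, and each panel has its own scale. Rab7b, at 10.93 and 11.09 in WT Zbtb46-GFP+ cells, stays at 8.09 and 8.38 in Id2 KO, while Rab44 drops from CDP to Zbtb46-GFP+ cells in every genotype.

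Among late endosome and lysosome Rabs, 1 of 7 rose and none fell. Rab7b, which works between late endosomes and the Golgi and limits Toll-like receptor signalling in macrophages, measured 8.38 and 7.80 on the WT CDP arrays and 10.93 and 11.09 on the WT Zbtb46-GFP+ arrays. The groups were far apart, a change of 2.92 ± 0.21 (SE, n = 2 per group), or 7.58-fold (limma adjusted p = 1.02e-05). Its relative Rab7, the general late endosome Rab that drives fusion with lysosomes, measured 11.28 and 10.97 in WT CDPs and 11.40 and 11.35 in WT Zbtb46-GFP+ cells. The Rab7 change of 0.25 had an interval from -0.07 to 0.56 and was not called (limma adjusted p = 0.367). The difference between the changes of these relatives was not tested.

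Of 15 Rabs of ER and Golgi traffic, 4 rose and none fell. Rab43, which acts at the ER and Golgi, measured 8.24 and 7.58 in WT CDPs and 9.96 and 10.63 in WT Zbtb46-GFP+ cells. Every Zbtb46-GFP+ array lay above both CDP arrays, a change of 2.38 ± 0.26, or 5.21-fold (limma adjusted p = 0.000169). Rab30, a Golgi Rab, measured 5.47 and 5.45 in WT CDPs and 7.52 and 7.25 later. This is a change of 1.92 ± 0.18, or 3.80-fold, with no overlap (limma adjusted p = 6.21e-05). Rab39, found on the Golgi and endosomes, went from 5.96 and 6.04 to 6.88 and 7.10, a 1.99-fold rise (limma adjusted p = 0.00227). Rab19, another Golgi Rab, went from 6.94 and 6.78 to 7.57 and 7.33, a smaller rise of 0.59 (limma adjusted p = 0.0114). Rab1a, needed for ER-to-Golgi transport in all cells, measured 11.02 and 11.14 in WT CDPs and 10.95 and 10.96 in WT Zbtb46-GFP+ cells, slightly below both CDP arrays, a change of -0.12 that was not called.

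Of the 3 Rabs of lysosome-related organelles, 1 rose, 1 fell and 1 was not called. Rab32, which with Rab38 sorts cargo to melanosomes and related lysosomes, measured 9.27 and 9.0 in WT CDPs and 10.95 and 11.06 in WT Zbtb46-GFP+ cells. Its groups did not overlap, and it rose by 1.87 ± 0.16, or 3.65-fold (limma adjusted p = 2.63e-05). Rab38 measured 8.21 and 7.72 and then 7.26 and 7.24, and it fell by 0.71 (limma adjusted p = 0.0236). Rab29, of the same subfamily, had a change of 0.63 that was not called (limma adjusted p = 0.0758). Rab29 was called with the term for the replicate 1 arrays (0.0235), the replicate number as a block (replicate block, 0.0128), the percentile block (0.0241), centring (0.0315), quantile normalization (0.012), a test of genes above the median signal alone (0.0491) or without WT CDP replicate 1 (0.0293).

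Rab11a, the Rab of recycling endosomes, was the 1 of 15 recycling and surface-delivery Rabs that rose, and none fell. It measured 9.71 and 9.64 in WT CDPs and 10.58 and 10.20 later, a change of 0.72, or 1.65-fold (limma adjusted p = 0.0211). The groups did not overlap, but its close relative Rab11b had a change of 0.03. Of 8 early endosome Rabs, 1 fell. Rab31, which works between the trans-Golgi and endosomes, measured 10.84 and 10.68 in WT CDPs and 9.43 and 10.25 in WT Zbtb46-GFP+ cells, and the later arrays differed widely from each other. It fell by 0.92 (limma adjusted p = 0.0218). Rab5c, of the early endosome fusion machinery, measured 9.87 and 9.81 and then 10.08 and 10.23, with a change of 0.31 that was not called (limma adjusted p = 0.155; 0.0315 with the percentile block and 0.0194 after quantile normalization).

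Of 8 Rabs of regulated secretion, 1 fell. Rab27a, which docks lysosome-related granules at the plasma membrane, measured 9.76 and 9.32 in WT CDPs and 8.39 and 8.58 in WT Zbtb46-GFP+ cells. Both later arrays lay below both CDP arrays, and the change was -1.06 ± 0.19, or 2.08-fold lower (limma adjusted p = 0.00446). Its relative Rab27b had a change of 0.01. Rab44, a large Rab with calcium-binding EF hands that is known from mast cell granule release, measured 10.96 and 10.57 in WT CDPs and 7.60 and 7.30 in WT Zbtb46-GFP+ cells. It fell by 3.32 ± 0.18, or 9.96-fold (limma adjusted p = 1.51e-06), further than any other Rab gene in this step. Of 15 neutrophil granule markers 5 were lower and none higher in WT Zbtb46-GFP+ cells than in CDPs, while the median of the list was 0.35, with a summed signal of 26428 to 30300 in WT CDPs and 19311 to 21024 in WT Zbtb46-GFP+ cells. None of 11 basophil and mast cell markers was called. The part of other cells in the fall of Rab44 was not tested.

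The 4 smaller calls depended on single arrays. Without WT CDP replicate 1, WT CDP replicate 2 or WT Zbtb46-GFP+ replicate 2, the limma adjusted p of Rab11a was 0.085, 0.0897 and 0.145, and that of Rab31 was 0.14, 0.0568 and 0.111. That of Rab19 was 0.075 without WT CDP replicate 2 and 0.0791 without WT Zbtb46-GFP+ replicate 2. For Rab38 it was 0.213 without WT CDP replicate 1, 0.0792 without WT Zbtb46-GFP+ replicate 2 and 0.0895 without replicate 3. With all 15 arrays fitted as labelled, none of the 59 was called, and 1 had an unadjusted p under 0.05.

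**Figure D2:**
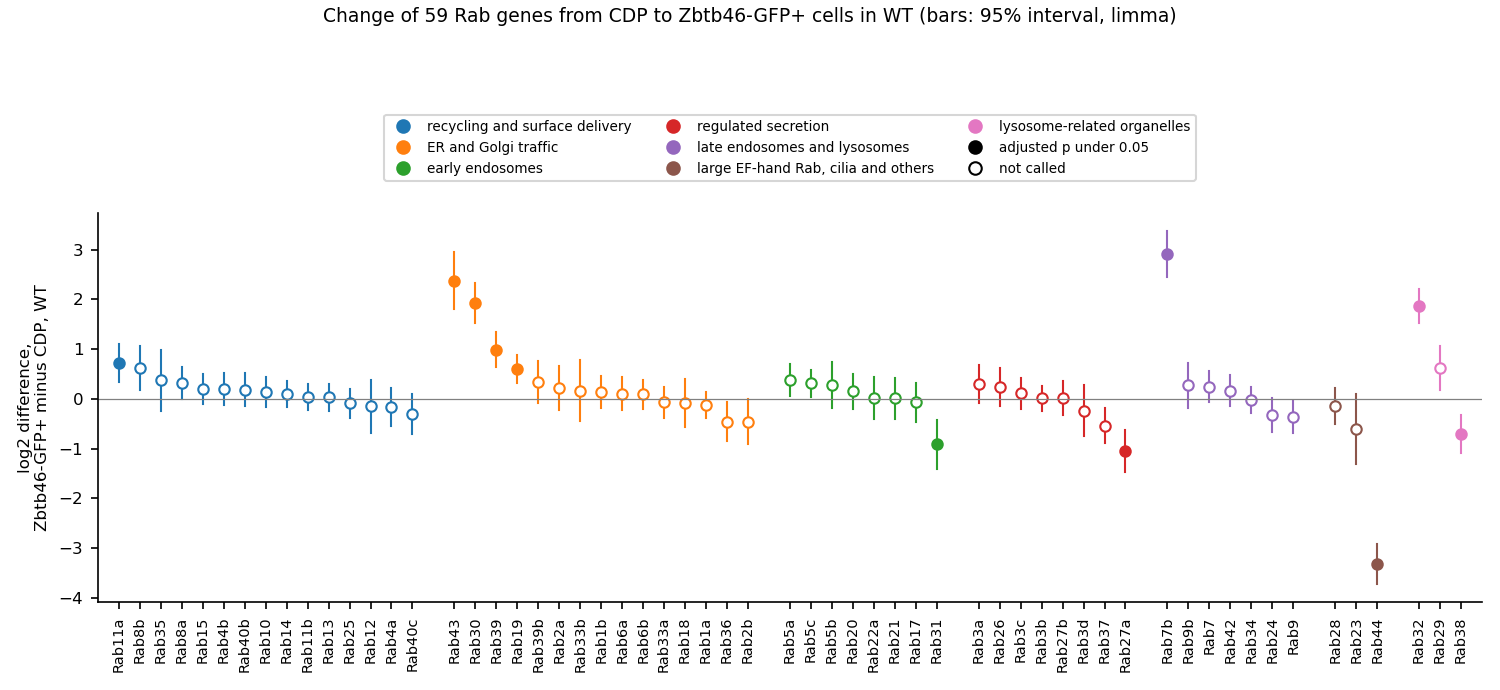
WT change between the CDP and Zbtb46-GFP+ stages (log2 difference of 2 against 2 arrays) for each of the 59 Rab genes, coloured by compartment or role; bars are 95% intervals and filled points are called genes. Changes run from -3.32 (Rab44) to 2.92 (Rab7b), and 48 genes lie between -0.6 and 0.63.

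The same step was then compared in the knockouts. In Batf3 KO cells 7 of 59 Rab genes were called (11.9%, against 7.18% of all genes), 5 of them higher and 2 lower (3.87% and 3.32% of all genes). In Id2 KO cells there were 5 (8.47%, against 6.82%), 3 higher and 2 lower (3.84% and 2.98% of all genes). The percentile block gave 12 and 14, and quantile normalization gave 11 in Id2 KO. Rab30, Rab43 and Rab44 were called in all 3 genotypes. Rab43 measured 8.22 and 7.96 in Batf3 KO CDPs and 9.73 and 9.45 later, and it rose by 1.5 (limma adjusted p = 0.00498). In Id2 KO it went from 8.15 and 7.75 to 9.22 and 9.34, a rise of 1.33 (limma adjusted p = 0.0109). The rise was smaller than the 2.38 of WT in both, but the differences of -0.88 and -1.05 were not called (limma adjusted p = 1 and 0.631). The Id2 KO difference of -1.05 was called with the percentile block (limma adjusted p = 0.0451). Rab30 measured 5.28 and 5.40 in Batf3 KO CDPs and 6.55 and 6.98 later, and 5.00 and 5.35 in Id2 KO CDPs and 6.59 and 6.34 later. The rises were 1.43 and 1.29. Rab44 went from 11.02 and 10.82 to 8.48 and 8.08 in Batf3 KO and from 10.67 and 10.88 to 8.48 and 8.46 in Id2 KO. It fell by 2.65 and by 2.30. In the same steps 6 neutrophil granule markers were higher and 3 lower in Batf3 KO, and 5 were higher and 3 lower in Id2 KO. Rab27a, which fell in WT, went from 9.76 and 9.49 to 9.17 and 8.84 in Batf3 KO and from 9.88 and 9.56 to 9.46 and 9.30 in Id2 KO, with changes of -0.62 and -0.34 that were not called. The Batf3 KO change was called with the term for the replicate 1 arrays (limma adjusted p = 0.0386), the percentile block (0.00115), centring (0.0314) and quantile normalization (0.00899), and the Id2 KO change with the percentile block (0.0397). The Rab27a step in Id2 KO differed from that in WT by 0.72. That difference was not called, but it was with the percentile block (limma adjusted p = 0.0246).

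Rab7b and Rab32 were the members whose step differed by genotype. Rab7b measured 8.31 and 7.98 in Batf3 KO CDPs and 9.50 and 9.55 in Batf3 KO Zbtb46-GFP+ cells, a rise of 1.38 (limma adjusted p = 0.00223). In Id2 KO it measured 8.47 and 8.09 in CDPs and 8.09 and 8.38 later, so the groups overlapped and the change of -0.04 had an interval from -0.51 to 0.42. The step in Id2 KO was lower than in WT by -2.96 ± 0.30 (limma adjusted p = 0.00167). That in Batf3 KO was lower by -1.54 and was not called (limma adjusted p = 0.21), but it was with the replicate block (0.0111), the percentile block (0.0289) and quantile normalization (0.0318). Rab32 measured 9.30 and 9.19 in Batf3 KO CDPs and 10.40 and 10.37 later, a 2.21-fold rise (limma adjusted p = 0.00118). In Id2 KO it went from 9.51 and 9.10 to 9.72 and 9.67, above both CDP arrays but with a change of 0.39 that was not called (limma adjusted p = 0.214; 0.0361 with the percentile block and 0.0312 after quantile normalization). Its step in Id2 KO was lower than in WT by -1.48 ± 0.22 (limma adjusted p = 0.0197). These were the 2 of 59 called for the interaction with Id2 (3.39%, against 0.321% of all genes, 0.206% lower). For Batf3 none was called, against 0.0953%, and 4 had an unadjusted p under 0.05.

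The other Rab genes called in a knockout step were few. In Batf3 KO, Rab39 rose from 6.12 and 6.03 to 7.14 and 6.72, a change of 0.86, and Rab38 fell from 8.18 and 7.95 to 7.30 and 7.46, a change of -0.68. In Id2 KO, Rab31 fell from 10.76 and 10.74 to 9.73 and 9.69, a change of -1.04. Rab6b, the form of Rab6 best known from neurons and from transport back to the ER, rose there from 6.52 and 6.6 to 7.26 and 6.99, a change of 0.56 that was not seen as a call in WT (0.09) or Batf3 KO (0.02). The difference of that step between Id2 KO and WT, 0.47, was not called (limma adjusted p = 0.879). Rab39, Rab38 and Rab31 moved the same way in the other knockout, without a call. The changes were 0.55 (Rab39) and -0.58 (Rab38) in Id2 KO, and -0.61 (Rab31) in Batf3 KO. With the percentile block each was called (limma adjusted p = 0.0208, 0.0197 and 0.0276), and Rab38 also after quantile normalization (0.0154).

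Of these knockout steps, 5 lost their call without a single array. For Rab38 in Batf3 KO the limma adjusted p was 0.296 and 0.0827 without CDP replicates 1 and 2, 0.21 and 0.116 without Zbtb46-GFP+ replicates 2 and 3, and 0.057 with each array centred on its 75th percentile. For Rab39 in Batf3 KO it was 0.0634 without CDP replicate 2 and 0.0757 without Zbtb46-GFP+ replicate 2. In Id2 KO the Rab31 values were 0.0886 and 0.0645 without CDP replicates 1 and 2, and 0.103 and 0.113 without Zbtb46-GFP+ replicates 2 and 3. Those of Rab43 were 0.0695 without CDP replicate 2, and 0.0688 and 0.0859 without Zbtb46-GFP+ replicates 2 and 3. Those of Rab6b were 0.156 and 0.0724 without CDP replicates 1 and 2, and 0.278 without Zbtb46-GFP+ replicate 2. The count of called Rab genes in Id2 KO was 2 or 3 without any single Id2 KO array.

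Between genotypes at the later stage, Rab7b was the single Rab gene called for Batf3 KO against WT (1.69% of 59, against 0.336% of all genes, 0.226% lower), and 10 had an unadjusted p under 0.05. The percentile block gave 4 and quantile normalization 2. Its values of 9.50 and 9.55 lay below the 10.93 and 11.09 of WT and above the 8.09 and 8.38 of Id2 KO. It was 2.80-fold lower than in WT, a difference of -1.49 ± 0.21 (limma adjusted p = 0.011). The order WT, Batf3 KO, Id2 KO held for each array tested, and Id2 KO was also lower than Batf3 KO, by -1.29 (limma adjusted p = 0.0241; 1 of 59 Rab genes, against 0.592% of all genes, 0.331% lower). The replicate 1 arrays, on their own scale, read 7.27, 6.57 and 4.07 in the same order. The call against WT was lost without WT Zbtb46-GFP+ replicate 3 (adjusted p = 0.0894) or Batf3 KO replicate 2 or 3 (0.129 and 0.0842). That between the knockouts was lost without Batf3 KO replicate 2 or 3 (0.119 and 0.178) or Id2 KO replicate 2 or 3 (0.28 and 0.0871). With the replicate 1 arrays kept under a term of their own, the Batf3 KO difference was -1.22 (limma adjusted p = 0.0793). Rab32, Rab43 and Rab19 kept the same genotype order on each array tested. For Rab32 the Batf3 KO difference from WT of -0.62 was not called. It was with the percentile block (limma adjusted p = 0.0226) and quantile normalization (0.0228). Its Id2 KO difference from Batf3 KO of -0.70 was not called either. The replicate block (limma adjusted p = 0.0446), the percentile block (0.00674), centring (0.049) and quantile normalization (0.00637) gave that call. The cDC1 markers moved with Rab7b: 9 of 15 were lower in Batf3 KO than in WT, with a summed signal of 20932 to 23137 against 39203 to 41545. The list and its sum include Batf3, the targeted gene, which is among the 9. Higher in Batf3 KO were 2 of 15 neutrophil granule markers (26056 to 36149 against 19311 to 21024), 1 of 10 cDC2 markers (12184 to 14998 against 6089 to 10219), 1 of 10 monocyte markers (11116 to 11557 against 9758 to 9850) and 1 of 10 progenitor markers (10160 to 11069 against 8135 to 10622). The part of these cells in the result was not tested.

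For Id2 KO against WT at the later stage, 6 of 59 Rab genes were called and 15 had an unadjusted p under 0.05 (10.2%, against 1.81% of all genes, 1.09% higher and 0.717% lower): Rab7b, Rab32 and Rab30 were lower than in WT, and Rab44, Rab27a and Rab24 were higher. Each of Rab7b, Rab32 and Rab30 had risen in the WT step and Rab44 and Rab27a had fallen in it, and both comparisons use the same WT Zbtb46-GFP+ arrays. Rab7b was 6.84-fold lower, a difference of -2.77 ± 0.21 (limma adjusted p = 6.54e-05). Rab32, at 9.72 and 9.67 against 10.95 and 11.06, was 2.48-fold lower, a difference of -1.31 ± 0.16 (limma adjusted p = 0.00147). Rab30, at 6.59 and 6.34 against 7.52 and 7.25, was 1.90-fold lower (limma adjusted p = 0.0264). For these genes the groups did not overlap. Rab43, at 9.22 and 9.34 against 9.96 and 10.63, differed by -1.01 and was not called (limma adjusted p = 0.0968), with no overlap. It was called with the replicate block (0.0307), the percentile block (0.00315), centring (0.0175), quantile normalization (0.0121) or without WT Zbtb46-GFP+ replicate 2 (0.0452). Rab3d, a Rab of regulated secretion, was higher in Id2 KO by 0.89 with no overlap, and was not called. The replicate block (limma adjusted p = 0.0315), the percentile block (0.000952), centring (0.039) and quantile normalization (0.0159) gave that call. On the replicate 1 arrays Rab3d was lower in Id2 KO (5.146) than in WT (5.395).

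Rab44 measured 8.48 and 8.46 in Id2 KO against 7.60 and 7.30 in WT and was 2.02-fold higher (limma adjusted p = 0.017). Batf3 KO, at 8.48 and 8.08, differed from WT by 0.83, which was not called (limma adjusted p = 0.159; 0.0356 with the percentile block). Rab27a measured 9.46 and 9.30 against 8.39 and 8.58 and was 1.86-fold higher (limma adjusted p = 0.0432). Rab24, a Rab linked to autophagy, measured 10.71 and 10.66 against 10.05 and 9.86, a difference of 0.73 (limma adjusted p = 0.0442), although its WT step of -0.32 was not called. On the replicate 1 arrays Rab24 and Rab44 were identical in Id2 KO and WT, Rab32 differed by -0.04, Rab30 by -0.60, Rab27a by 0.36 and Rab7b by -3.20. Of these 6, Rab7b had the largest difference on both sets of arrays.

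**Figure D3:**
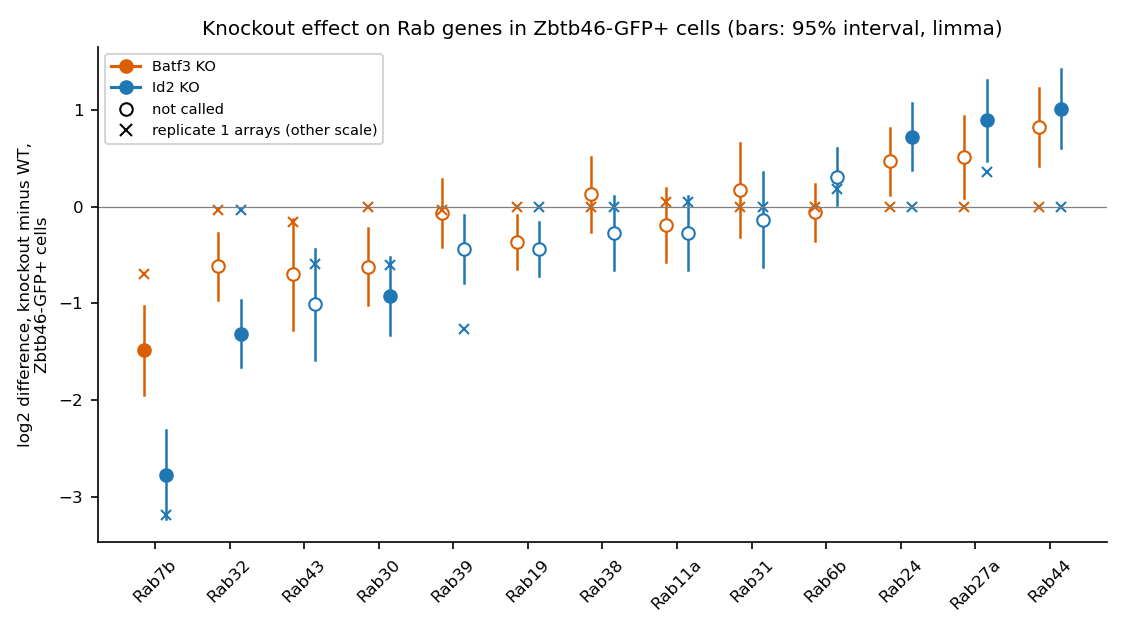
Differences between knockout and WT Zbtb46-GFP+ cells (log2, 2 against 2 arrays) for the 13 Rab genes called in any comparison; bars are 95% intervals, filled points are called and crosses are the replicate 1 arrays. Rab7b lies lowest in both, at -1.49 (Batf3) and -2.77 (Id2), and Rab44 and Rab27a lie above 0 in Id2 KO at 1.02 and 0.89.

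Markers of other cells moved with the Id2 KO difference. Of 15 cDC1 markers 13 were lower, with a summed signal of 15991 to 16497 against 39203 to 41545 in WT. The list and its sum include Id2, the targeted gene, and Batf3, and both are among the 13. Of 11 pDC markers 6 were higher (18273 to 20225 against 5683 to 7739), as were 4 of 15 neutrophil granule markers (49386 to 51299 against 19311 to 21024) and 1 of 11 basophil and mast cell markers (2447 to 3081 against 736 to 1312). Of 10 cDC2 markers 1 was higher, and of 10 monocyte markers 2 were higher and 1 lower. Their part in the Rab differences was not tested. The count of 6 was 12 with the percentile block, 9 with the replicate block and 2 with the term for the replicate 1 arrays. It was 3 without WT Zbtb46-GFP+ replicate 3 or Id2 KO replicate 2, and 2 without Id2 KO replicate 3. Rab7b and Rab32 kept their call without each single array of these groups. Rab30 lost it without WT Zbtb46-GFP+ replicate 2 (limma adjusted p = 0.155) or Id2 KO replicate 2 or 3 (0.0999 and 0.254). Rab44 lost it without WT replicate 3 (0.113) or Id2 KO replicate 2 or 3 (0.151 and 0.132). Rab27a and Rab24 lost it without any 1 of the 4 arrays, with adjusted p of 0.198 and 0.0762 without WT replicate 2, 0.0926 and 0.217 without WT replicate 3, 0.352 and 0.317 without Id2 KO replicate 2, and 0.171 and 0.223 without Id2 KO replicate 3. With the replicate 1 arrays kept under a term of their own, Rab7b (-2.91) and Rab30 stayed called, and Rab32 (-0.89, limma adjusted p = 0.0716), Rab44 (0.184), Rab27a (0.0657) and Rab24 (0.225) did not. With each array centred on its 75th percentile, Rab30 (0.102) and Rab24 (0.0709) were not called either. The Rab32 interaction with Id2 was lost under the term for the replicate 1 arrays too (-1.06, adjusted p = 0.724), and without single arrays its adjusted p was 0.068 (WT CDP replicate 2), 0.0648 (WT Zbtb46-GFP+ replicate 3), 0.0568 (Id2 KO CDP replicate 1), 0.089 and 0.104 (Id2 KO Zbtb46-GFP+ replicates 2 and 3).

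The RefSeq promoter table (GRCm38.p6) holds 48 of the Rab genes in 60 entries. Of these entries, 4 belong to Rab genes called for a knockout, namely Rab32, Rab27a and Rab24. Rab7b, Rab30 and Rab44, also called for a knockout, have no entry among these, so their promoters were not searched. Rab7b is the single Rab gene called for Batf3 KO against WT. The 250 bases before each start are shown because Batf3 and Id2 bear on factors that bind short DNA words: AP-1 factors bind TGANTCA, and E proteins bind the E box, CANNTG. Both words were searched on both strands, and each reads the same on either. Capitals mark E boxes, and none of the 4 holds TGANTCA.
Rab32, chr10:10558208-10558457, minus strand: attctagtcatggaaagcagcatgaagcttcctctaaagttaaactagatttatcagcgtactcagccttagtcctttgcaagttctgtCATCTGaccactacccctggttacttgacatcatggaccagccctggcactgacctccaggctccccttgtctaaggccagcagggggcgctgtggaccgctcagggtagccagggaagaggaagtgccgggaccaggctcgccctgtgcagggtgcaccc
Rab27a, first start, chr9:73044560-73044809, plus strand: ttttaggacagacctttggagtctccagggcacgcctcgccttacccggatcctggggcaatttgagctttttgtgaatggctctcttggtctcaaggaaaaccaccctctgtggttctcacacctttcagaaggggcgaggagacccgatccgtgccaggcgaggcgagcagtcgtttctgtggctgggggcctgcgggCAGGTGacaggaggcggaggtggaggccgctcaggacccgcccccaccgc
Rab27a, second start, chr9:73063898-73064147, plus strand: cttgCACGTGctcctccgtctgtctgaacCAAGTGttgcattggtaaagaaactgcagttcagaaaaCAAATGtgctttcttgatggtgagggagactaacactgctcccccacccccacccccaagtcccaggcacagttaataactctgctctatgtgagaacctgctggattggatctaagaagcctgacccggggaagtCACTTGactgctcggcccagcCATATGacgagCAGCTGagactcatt
Rab24, chr13:55321981-55322230, minus strand: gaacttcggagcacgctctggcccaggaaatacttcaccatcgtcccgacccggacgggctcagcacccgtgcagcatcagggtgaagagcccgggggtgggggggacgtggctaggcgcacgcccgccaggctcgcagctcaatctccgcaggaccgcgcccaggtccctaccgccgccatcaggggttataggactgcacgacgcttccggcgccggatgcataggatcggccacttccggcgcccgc

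The Rab32 stretch holds 1 E box, CATCTG, 161 bases before the start. The first Rab27a start has 1, CAGGTG, 50 bases before it, the second has 6, and Rab24 has none. An E box stands in 3 of these 4 stretches, in 63.3% of the 60 Rab entries and in 66.2% of all 32851 entries, and TGANTCA in 3.33% of Rab entries and 6.75% of all. The word CACCTG or CAGGTG stands in 17.2% of all entries, 15% of Rab entries and 1 of the 4. A match is a description of letters, not of binding.

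In CDPs no Rab gene was called for either knockout, against 0.0502% of all genes for Batf3 KO and 0.0251% for Id2 KO by limma. For Batf3 KO the 59 differences ran from -0.17 to 0.29, none had an unadjusted p under 0.05, and their 95% intervals reached from -0.70 to 0.89. For Id2 KO they ran from -0.40 to 0.34, with intervals from -0.88 to 0.85, and 1 had an unadjusted p under 0.05 (Rab38, at 7.70 and 7.43 against 8.21 and 7.72 in WT, limma adjusted p = 1). Rab7b, the member that differed most later, measured 8.47 and 8.09 in Id2 KO CDPs and 8.38 and 7.80 in WT CDPs, overlapping ranges. At the later stage Rab7b differed from WT by -1.49 in Batf3 KO and by -2.77 in Id2 KO. In the test on the 12 arrays, its difference in step from WT was called for Id2 KO (-2.96) and not for Batf3 KO. In the CDPs Xist differed from WT by -7.02 in Batf3 KO and by -7.06 in Id2 KO.

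The proteins that run the Rab cycle were counted from lists written from general knowledge. Of 12 membrane-cycle genes measured, among them those for the prenylation enzyme, escort proteins, GDI and membrane proteins of the Yip family, none was called in the WT step. Of 38 exchange factors 6 rose and 2 fell, against 4.71% and 6.38% of all genes. Of 35 GTPase-activating proteins 3 rose and 2 fell, and of 53 effectors 6 rose and 2 fell. None of these shares was tested against that of all genes. The medians of the 3 lists were 0.02, 0.09 and 0.13, against 0.03 over all genes. Tbc1d9, of the TBC family of GTPase-activating proteins, measured 6.83 and 6.79 in WT CDPs and 9.98 and 11.11 in WT Zbtb46-GFP+ cells. It rose by 3.73 (limma adjusted p = 1.83e-05), with no overlap. Lrrk2, a kinase that phosphorylates Rabs and is recruited by Rab29, measured 7.25 and 6.70 and then 9.39 and 10.37, and it rose by 2.90 (limma adjusted p = 7.55e-05). Rab11fip1, an effector of Rab11, rose by 2.12, Tbc1d8 by 1.69, and Dennd2d and Dennd4a, exchange factors of the DENN family, each by 1.19. Rab11fip4 and Dennd1c each rose by 1.16, Dennd5b fell by 0.90 and Tbc1d2b by 1.17. Without WT Zbtb46-GFP+ replicate 3 the limma adjusted p of Dennd2d was 0.067, of Dennd4a 0.191 and of Dennd1c 0.0721. Without WT CDP replicate 2 these were 0.0542, 0.162 and 0.0671, and without WT CDP replicate 1 that of Dennd4a was 0.0687.

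**Figure D4:**
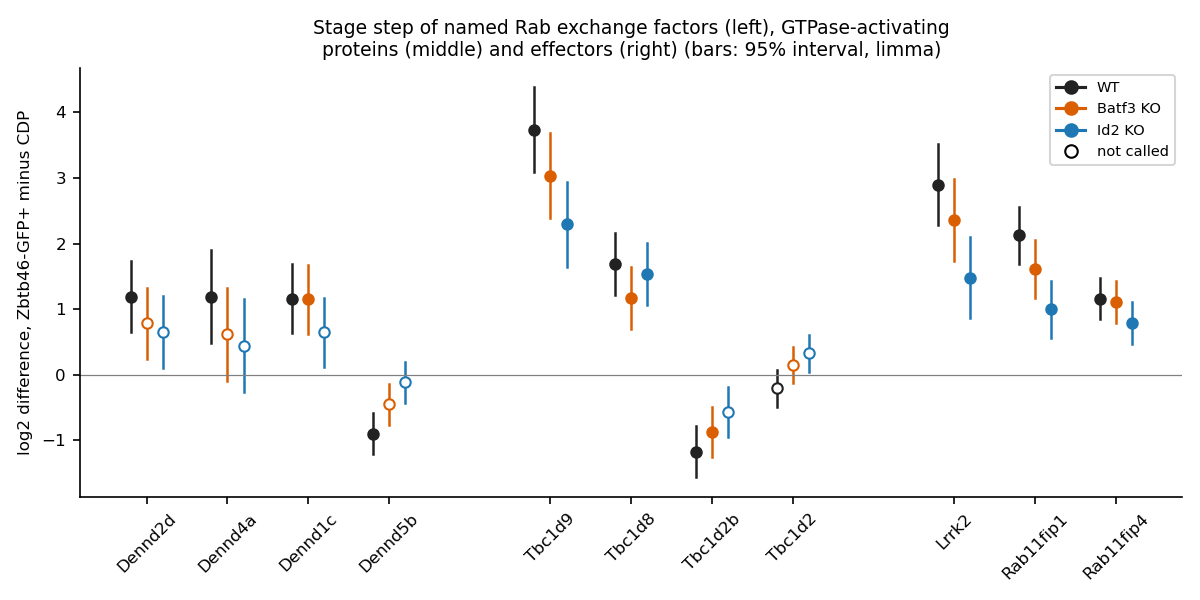
Change from CDP to Zbtb46-GFP+ cells (log2, 2 against 2 arrays) in each genotype for the exchange factors, GTPase-activating proteins and effectors named; bars are 95% intervals and filled points are called. In WT, Tbc1d9 at 3.73 and Lrrk2 at 2.90 lie highest.

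For Batf3 KO against WT in Zbtb46-GFP+ cells none of these 138 genes was called, against 0.336% of all genes, and 5 had an unadjusted p under 0.05. For Id2 KO against WT, 5 were, against 1.81% of all genes: Tbc1d9 (-1.55), Lrrk2 (-1.34) and Rab11fip1 (-0.93) were lower, and Dennd5b (0.70) and Tbc1d2 (0.79) were higher. Lrrk2 measured 8.61 and 8.47 in Id2 KO against 9.39 and 10.37 in WT, and Tbc1d9 9.18 and 8.82 against 9.98 and 11.11, ranges that did not overlap. On the replicate 1 arrays Tbc1d9 differed by -0.98 and Lrrk2 by -1.24, Rab11fip1 and Dennd5b were identical, and Tbc1d2 differed by -0.11, the other sign. With those arrays kept under a term of their own, Rab11fip1 (limma adjusted p = 0.231), Dennd5b (0.196) and Tbc1d2 (0.219) were not called. Each of the 5 lost its call without single arrays, with limma adjusted p up to 0.212 (Tbc1d9), 0.266 (Lrrk2), 0.387 (Rab11fip1), 0.358 (Dennd5b) and 0.126 (Tbc1d2). The Id2 KO replicate 2 and 3 arrays and WT replicate 3 were those whose removal ended these calls, and for Dennd5b also WT replicate 2.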

How the data were processed

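RNA from sorted mouse bone marrow cells was measured on 15 Affymetrix arrays. The deposited values are intensity, linear probe set signal after RMA in Affymetrix Expression Console, per the submitters' processing notes; versions and settings are not given in the sources used here. The values were log2 transformed. Of 28853 probe sets, 21789 carry a single gene symbol, 1621 several, and 5443 have no entry; the probe set with the highest mean was kept for each of 19938 genes, and all 59 Rab genes matched the RefSeq table.

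The model was limma 3.58.1 in R 4.3.3: 6 group means on 12 arrays with 6 residual degrees of freedom, empirical Bayes without trend, two-sided, 10 comparisons, Benjamini-Hochberg adjustment over all genes. The 3 replicate 1 arrays on another scale were left out or kept under a term of their own. The procedure was tested on simulated data for Id2 KO against WT Zbtb46-GFP+ cells with 19938 genes. Of genes changed by 1 on the log2 scale it called 69 of 100, and of those changed by 2 it called 98 of 100. Of its 175 calls, 8 were false. The simulated arrays had independent noise and no other difference between groups. The residuals of the real arrays are correlated, so these rates may not hold for the data.

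Rab members, the lists of regulators and markers, and the tests were chosen with earlier results of these data known. Rab genes named are those called in at least 1 comparison, plus Rab1a, Rab3d, Rab5c, Rab7 and relatives of called genes. List genes named are the called ones with the 3 largest changes in the WT step and those called for a knockout. Alternatives were all 15 arrays, leaving out each array, centring on the 75th percentile, quantile normalization, a signal filter and the mean of probe sets. Blocks were fitted for replicate number or for the array of each pair with the higher 75th percentile, a split made from the values themselves. Rab proteins were not compared here. Coordinates and promoter sequences are from RefSeq (GRCm38.p6).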

Additional observations from a re-analysis of the deposited data

Results flagged for a closer look

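The step from CDP to Zbtb46-GFP+ cells differed between Id2 KO and WT in 2 Rab genes, by a test of the difference itself (limma, n = 2 arrays per group). For Rab7b, the late endosome Rab that rose in WT, the difference in step was -2.96 ± 0.30 (adjusted p = 0.00167), with an interval from -3.62 to -2.31, and it stayed called without any single array. For Rab32, a Rab of lysosome-related organelles, it was -1.48 ± 0.22 (adjusted p = 0.0197), with an interval from -1.97 to -1.0, and it did not hold without some single arrays.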

How the results depend on the processing

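Each count is of the 59 Rab genes called by limma. The share of all genes called under each setting is not given, so a larger count is not read as a result about Rab genes. Fitted on all 15 arrays as labelled, 0 were called in the WT, Batf3 KO and Id2 KO steps, in Batf3 KO and Id2 KO against WT, in Id2 KO against Batf3 KO and for the Id2 interaction, with at most 1 at an unadjusted p under 0.05; the changes of Rab11a (-0.12) and Rab19 (-0.31) in the WT step, Rab6b in the Id2 KO step (-0.29) and Rab11fip4 in the WT step (-0.14) then turned sign. With a term for the 3 arrays on another scale, Batf3 KO against WT gave 0, Id2 KO against WT 2 and the Id2 interaction 1. Residual correlations of same-numbered arrays ran from -0.63 to 0.68 (median 0.35, and -0.35 for different numbers). With 2 arrays per group, the residuals of a group mirror each other. The values for different numbers therefore follow from those for same numbers and add no separate evidence on pairing. Same-numbered CDP arrays all correlated at 0.53 to 0.68, but not every same-numbered pair was above 0.1, so the numbers were not taken as pairing. With the replicate block on the 12 arrays, Id2 KO against WT gave 9, Id2 KO against Batf3 KO gave 2 and the Batf3 interaction 1, and Rab31 in the WT step and Rab38 in the Batf3 KO step lost their calls. With a block for the array of each pair with the higher 75th percentile, the counts were 21, 12 and 14 for the 3 steps, 4 and 12 for Batf3 KO and Id2 KO against WT, 3 between the knockouts, and 1 and 4 for the Batf3 and Id2 interactions. Quantile normalization gave 18 in the WT step, 11 in the Id2 KO step, 2 for Batf3 KO against WT, 2 between the knockouts and 1 for the Batf3 interaction, and centring gave 2 between the knockouts and moved the median WT step of all genes by 0.111. Without single arrays the counts ran from 8 to 12 in the WT step, 5 to 8 in the Batf3 KO step, 2 to 7 in the Id2 KO step, 0 to 1 for Batf3 KO against WT, 2 to 6 for Id2 KO against WT, 0 to 1 between the knockouts and 1 to 2 for the Id2 interaction. Of 33 called gene results, 17 kept their call without each array in turn. The causes were not tested.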

Other observations

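Several Rab genes lie near each other: Rab7b and Rab29 on chromosome 1 with 3 coding genes between, Rab43 and Rab7 on chromosome 6 with 6, Rab31 and Rab12 on chromosome 17 with 8, and Rab38 and Rab30 on chromosome 7 with 18. In the first 3 pairs 1 member was called in the WT step, and in the last Rab30 rose and Rab38 fell. Of 4 Rab genes on the X chromosome (Rab9, Rab9b, Rab33a and Rab39b), none was called in any of the 10 comparisons by limma.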
